A study of Malus domestica with 18 samples.

Results

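Waxes and cutin, the lipids that waterproof the surface of a fruit, are built from fatty acyl chains. The genes described here were annotated, by their closest proteins, as enzymes that lengthen fatty acyl chains or join such chains into esters. They comprised 3 gene models for 3-ketoacyl-CoA synthases (KCS), 1 glycerol-3-phosphate 2-O-acyltransferase 6-like gene (GPAT6-like) and 1 O-acyltransferase WSD1-like gene, chosen by gene identifier, so they made up 5 of the 2856 genes in the deposited table. RNA-seq measured the skin of "Golden Delicious" apples that were enclosed on day 20 after flowering in light-proof paper bags (T) or left unbagged (CK). Skin was taken 30, 60 and 150 days after flowering (DAF30, DAF60, DAF150). Each of the 6 groups had 3 libraries, each from the mixed peel of 3 fruits. The study used 3 trees as replicates of T and of CK, and described unbagged skin as russeted, that is rough and corky, and bagged skin as non-russeted. It also measured the wax layer, which was thicker in T than in CK at all 3 stages. Repeated sampling of a tree over the stages is not given in the sources used here. All fruit came from 1 cultivar, and the loss of light and the other effects of a bag cannot be told apart in this design.

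In plants, fatty acids made in the plastid are lengthened in the endoplasmic reticulum by an elongase complex, in which a KCS performs the first, condensing step and largely sets the length of the product. Long chains become wax alkanes, alcohols and esters, and in Arabidopsis the enzyme WSD1 joins an alcohol and an acyl chain into a wax ester. GPAT6 of Arabidopsis attaches hydroxylated acyl chains to glycerol-3-phosphate, which gives the precursors of cutin, whereas suberin is the related polyester of corky cells.

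The gene models lie on the GDDH13 v1.1 apple genome as follows, each named after the closest protein in the deposited annotation, which gave spans but no exons. MD07G1187400, KCS19-like, runs from 26827200 to 26828615 on the forward strand of chromosome 7. MD07G1187000, also KCS19-like, spans 26791008 to 26828979 on the same strand and therefore contains all 1416 bp of MD07G1187400. Another KCS, MD05G1065300, matched KCS4 of peach and lies at 11977829 to 11979340 on the reverse strand of chromosome 5. The GPAT6-like gene MD09G1043100 lies at 2772643 to 2774190 on the reverse strand of chromosome 9. The WSD1-like gene MD02G1104100 spans 8343483 to 8358540 on the forward strand of chromosome 2. Only 1 of the 5 closest proteins, that of MD07G1187000, was found among the proteins of the RefSeq assembly GDT2T_hap1, where its gene is LOC103416918.

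Levels are FPKM, fragments scaled to the length of the gene and to the mapped fragments of the library. Differences are on the log2(FPKM + 1) scale, which understates the change of genes near or below 1 FPKM. They were tested with limma over 1399 genes that reached 1 FPKM in at least 3 libraries, and a gene is said to have risen or fallen where its adjusted p was at most 0.05. All 5 genes passed that filter, but MD05G1065300 did so only through 4 CK libraries, having reached 1 FPKM in 0 T libraries. The GPAT6-like gene passed through 6 T and 5 CK libraries, all of DAF60 or DAF150. Every gene in the table had been selected by the authors for a difference between T and CK over all libraries, with 2246 genes lower and 610 higher in T and all 5 genes described here among the lower. A lower level in T is therefore a property of the selection and not independent evidence. Changes between stages within T or within CK, and the change of the T to CK difference between stages, were not its criterion. The libraries of every stage entered that criterion, however, so a large difference at 1 stage can place a gene in the table. Such changes are thus not fully independent of the selection. The paper gives an average sequencing output and mapping rates for the samples, but the levels used here are FPKM without fragment counts. The depth of single libraries was not used. The FPKM of the table summed to between 15710 and 30988 per library.

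At DAF60 the chain-building genes were lower in T than in CK, by 3.19-fold to 14.0-fold in the group means, whereas at DAF30 none of them differed beyond the spread between libraries and at DAF150 the WSD1-like gene alone did. All 5 fell at DAF60, where 61.9% of all genes tested fell, and in all 5 every T library lay below every CK library, as it did in 63.4% of genes. MD05G1065300 passed the filter only through CK libraries, so its part in both counts is a description of these libraries. The 2 KCS19-like models and the WSD1-like gene also passed the stricter threshold of a 2-fold change and an adjusted p of at most 0.001, which 27.4% of genes passed as lower in T. The median difference of the 5 genes at DAF60 was -1.93, against -1.06 over all genes tested. Both KCS19-like models enter the value of -1.93 although they share a locus, which is thus counted more than once. The gap between these medians is therefore a description and is not read as a difference from all genes tested. Centring each library on its median moved that median of all genes to 0.10, and after it the KCS19-like models and the WSD1-like gene still fell, while the differences of MD05G1065300 and the GPAT6-like gene turned to 0.35 and 0.03 with no call. These are whole-skin samples, in which fewer cells of a type and less RNA per cell cannot be told apart.

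At DAF30, 0 of the 5 genes fell in T by limma, beside 12.4% of all genes tested, and 0 had an unadjusted p under 0.05. At DAF150, 1 of the 5 fell, beside 31.5% of all genes tested, and the median difference was -0.12 for the 5 genes and -0.37 over all genes. With so few genes, and 2 models at 1 locus, these shares and medians are not read as different from the background. Over the stages together 4 of the 5 were lower in T, beside 75.1% of all genes tested, but this is the contrast on which the table was selected and is given as a description.

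**Figure D1:**
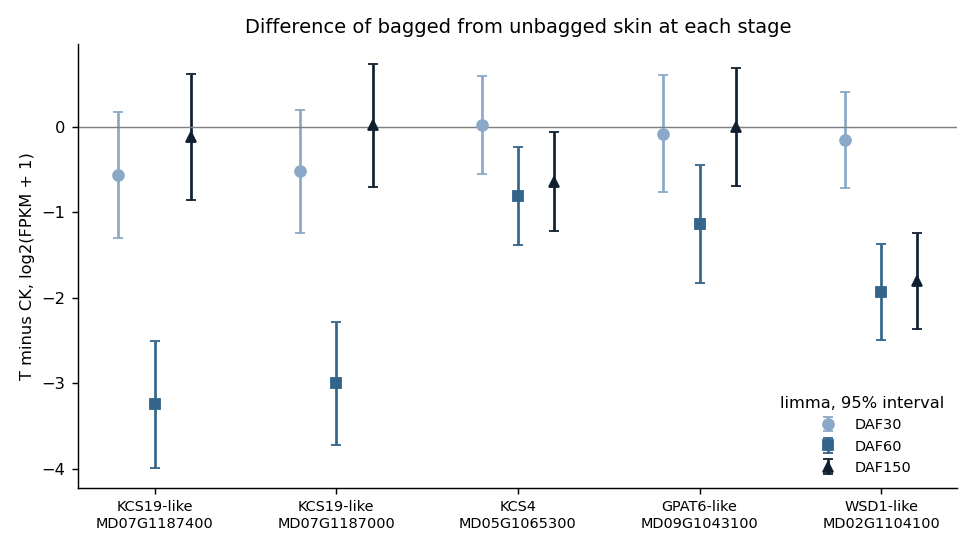
Difference of T from CK in log2(FPKM + 1) for each gene at DAF30, DAF60 and DAF150, with limma's 95% interval from 3 libraries a group. The DAF60 squares lie lowest for all 5 genes, at -3.25 for MD07G1187400 and -0.81 for MD05G1065300, but with median-centred libraries MD05G1065300 and the GPAT6-like gene stood at 0.35 and 0.03.

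The KCS19-like models were by far the most abundant of the 5 genes. MD07G1187400 measured 86.1, 83.4 and 78.3 FPKM in T skin at DAF30, against 181, 68.4 and 149 FPKM in CK skin. At DAF60 it measured 22.7, 25.0 and 16.5 FPKM in T skin, against 305, 180 and 167 FPKM in CK skin. The highest T library was thus far below the lowest CK library at DAF60, while at DAF30 the CK libraries spread around those of T. At DAF150 the gene measured 53.0, 49.8 and 43.4 FPKM in T skin and 36.5, 70.0 and 57.6 FPKM in CK skin, and the groups overlapped. By mean FPKM it ranked 94 in T and 11 in CK among the 2856 genes at DAF60.

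The mean of MD07G1187400 at DAF60 was 21.4 ± 4.40 FPKM in T and 217 ± 76.1 FPKM in CK (SD, n = 3 each), a 10.1-fold lower level in T. The difference of -3.25 ± 0.35 (SE) had an adjusted p of 8.4e-06 in limma and was the 19th lowest of the 1399 genes tested. At DAF30 the difference was -0.57 with a 95% interval of -1.31 to 0.17, and at DAF150 it was -0.12 with an interval of -0.86 to 0.62. Neither passed the test.

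The level of this condensing enzyme was lowest at DAF60 in T, whereas in CK the called change was a fall after DAF60. In T the level fell at DAF60 relative to DAF30 by 1.92 on the log2 scale (limma adjusted p 8.8e-04) and rose again at DAF150 relative to DAF60 by 1.17 (adjusted p 0.0154). In CK the difference of DAF60 from DAF30 was 0.76 and did not pass (adjusted p 0.0866), and the level at DAF150 fell relative to DAF60 by 1.96 (adjusted p 1.6e-04). The difference of T from CK itself changed by -2.68 between DAF30 and DAF60 (95% interval -3.73 to -1.63, adjusted p 0.0022) and by 3.13 between DAF60 and DAF150 (interval 2.08 to 4.18, adjusted p 7.8e-04). Between DAF30 and DAF150 its change was 0.45, with an interval from -0.60 to 1.5. Without replicate 3 of T at DAF60, the rise within T to DAF150 was no longer called for either KCS19-like model.

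MD07G1187000 gave nearly the same picture at a lower level. It measured 34.5, 31.0 and 25.6 FPKM in T and 64.7, 25.0 and 51.4 FPKM in CK at DAF30. At DAF60 it measured 8.08, 8.88 and 6.14 FPKM in T, against 94.8, 61.5 and 53.9 FPKM in CK. At DAF150 the values were 20.1, 18.6 and 17.3 FPKM in T and 12.8, 22.6 and 21.5 FPKM in CK. Only the DAF60 groups were separate, with a 9.10-fold lower mean in T and a difference whose 95% interval ran from -3.72 to -2.28 (limma adjusted p 1.3e-05). Its changes of the T to CK difference were -2.48 between DAF30 and DAF60 (adjusted p 0.0024) and 3.02 between DAF60 and DAF150 (adjusted p 7.8e-04).

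The models are not independent measurements. MD07G1187400 begins 36192 bp downstream of the start of MD07G1187000 and lies 100% inside it, so the same reads can be assigned to either. The level of MD07G1187000 was 0.328 to 0.401 of that of MD07G1187400 in T libraries and 0.311 to 0.373 in CK libraries, and over the 18 libraries the log2 values correlated with a Pearson's r of 0.997. How the counting divided shared reads is not given in the sources used here, so the pair may be read as 1 measured KCS19-like locus. Another KCS19-like model inside the same span, MD07G1187200 at 26816135 to 26816641, did not reach the filter.

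**Figure D2:**
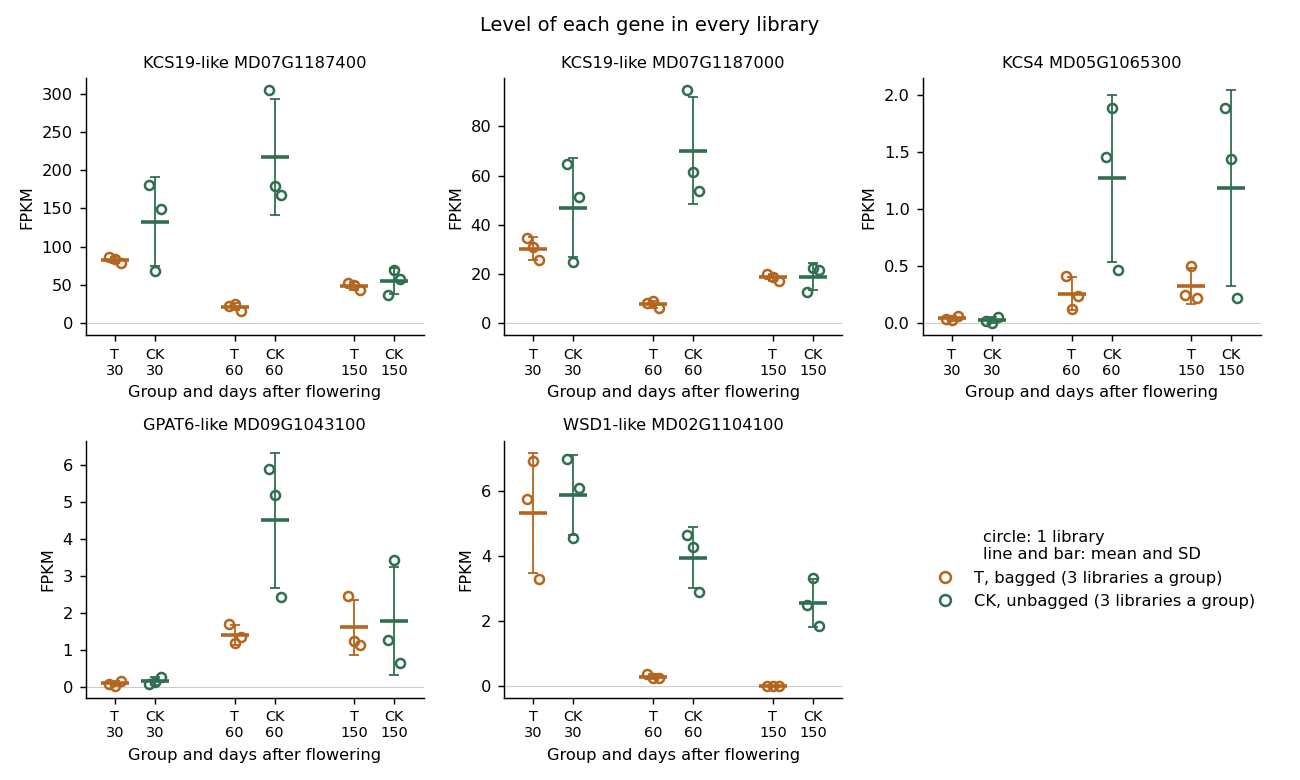
FPKM of each gene in every library, by group and days after flowering, with circles for the 3 libraries and a line and bar for the mean and SD. The KCS19-like panels show the T libraries at DAF60 far below those of CK, at 16.5 to 25.0 FPKM against 167 to 305 FPKM for MD07G1187400, and the WSD1-like panel shows T at 0 at DAF150.

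**Figure D3:**
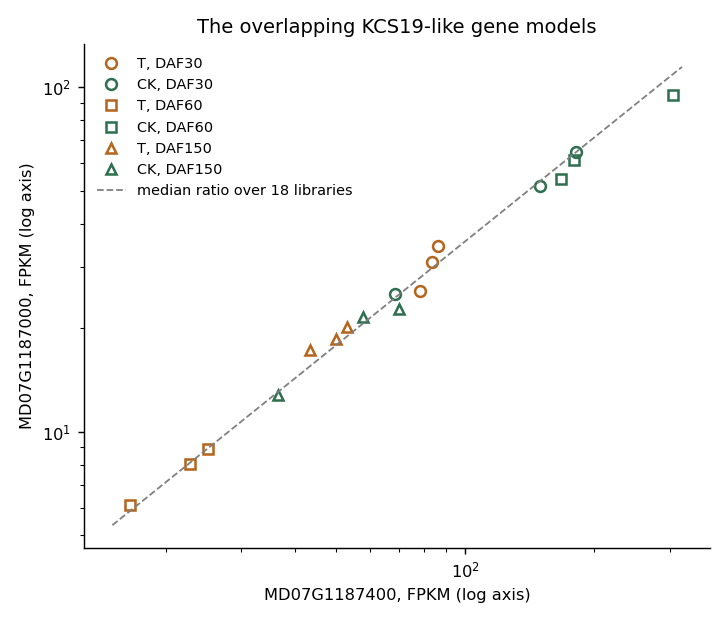
FPKM of MD07G1187000 against MD07G1187400 in each of the 18 libraries, both on log axes, with the median ratio of 0.357 as a dashed line. The points of both treatments and all stages lie along that line, with ratios between 0.311 and 0.401.

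The WSD1-like gene MD02G1104100 had a different course, at a level of a few FPKM. At DAF30 it measured 5.78, 6.93 and 3.30 FPKM in T and 7.01, 4.55 and 6.10 FPKM in CK. At DAF60 it measured 0.37, 0.23 and 0.25 FPKM in T, against 4.67, 4.30 and 2.91 FPKM in CK. The groups overlapped at DAF30 and were far apart at DAF60. At DAF150 it was listed at 0 in all 3 T libraries and measured 2.50, 3.32 and 1.84 FPKM in the CK libraries, so no ratio is given for that stage.

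The difference of T from CK in the WSD1-like gene was -0.15 at DAF30 (95% interval -0.71 to 0.41), -1.93 ± 0.27 at DAF60 and -1.81 ± 0.27 at DAF150 (SE, limma adjusted p 3.8e-05 at both later stages). In group means it was 14.0-fold lower in T at DAF60, at 0.283 ± 0.0757 FPKM in T and 3.96 ± 0.928 FPKM in CK (SD, n = 3 each). Within T it fell at DAF60 relative to DAF30 by 2.26 (adjusted p 2.0e-05), while within CK the differences of -0.48 from DAF30 to DAF60 and of -0.48 from DAF60 to DAF150 did not pass the test (adjusted p 0.158 and 0.130). With median-centred libraries, however, the CK difference between DAF30 and DAF60 was -1.04 and called (adjusted p 0.0025), so a fall within CK depends on the scaling. The difference of T from CK changed by -1.78 between DAF30 and DAF60 (adjusted p 0.0031) and by -1.66 between DAF30 and DAF150 (adjusted p 0.0035), and its change of 0.13 between DAF60 and DAF150 did not pass. Within T the step from DAF60 to DAF150 was -0.36 and not called, but with a pseudocount of 0.1 it was -1.92 and called. With median-centred libraries the gene was still lower in T at DAF60 (-0.77) and DAF150 (-1.35), but the change of -0.88 between DAF30 and DAF60 was not called (adjusted p 0.0645).

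KCS4 and the GPAT6-like gene were both close to 0 in each group at DAF30 and had higher means at DAF60, with CK above T, but differed in their later steps. MD05G1065300 measured 0.03, 0.02 and 0.06 FPKM in T and 0.01, 0 and 0.05 FPKM in CK at DAF30. At DAF60 it measured 0.41, 0.12 and 0.23 FPKM in T, against 1.46, 1.89 and 0.46 FPKM in CK. At DAF150 it measured 0.24, 0.50 and 0.22 FPKM in T and 1.89, 1.44 and 0.22 FPKM in CK. One CK library in 3 was thus low at both later stages, and at DAF150 it was as low as the lowest T library.

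The difference of T from CK in MD05G1065300 was -0.81 ± 0.27 at DAF60 (SE, limma adjusted p 0.0142), with a 5.01-fold lower mean in T, and -0.64 at DAF150, which did not pass (adjusted p 0.0668). The DAF60 call rested on single libraries. Its adjusted p was 0.053 without replicate 1 and 0.070 without replicate 2 of CK at DAF60, and the sign turned to 0.35 with median-centred libraries. Without replicate 3 of CK at DAF60 and at DAF150, the differences were -1.1 at DAF60 and -1.02 at DAF150, both called (adjusted p 6.1e-05 and 1.3e-04). That omission was chosen after the values were seen and removed the lowest CK library at each stage. A wider difference was therefore fixed in advance and is no support for the calls. Within CK the gene rose at DAF60 relative to DAF30 by 1.1 (adjusted p 0.0037), and with median-centred libraries that rise was 0.54 and not called. Since the gene passed the filter only through CK libraries of DAF60 and DAF150, its T to CK difference and this rise are given as a description of these libraries. Within T the difference of 0.27 between these stages did not pass.

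The GPAT6-like gene MD09G1043100 measured 0.09, 0.03 and 0.17 FPKM in T and 0.09, 0.12 and 0.27 FPKM in CK at DAF30. At DAF60 it measured 1.71, 1.19 and 1.34 FPKM in T, against 5.89, 5.20 and 2.44 FPKM in CK. At DAF150 it measured 2.47, 1.23 and 1.14 FPKM in T and 1.28, 3.43 and 0.66 FPKM in CK. The groups were separate at DAF60 and overlapped at both other stages. At DAF60 the mean was 3.19-fold lower in T, at 1.41 ± 0.268 FPKM in T and 4.51 ± 1.83 FPKM in CK (SD, n = 3 each), with a difference of -1.13 ± 0.33 (SE, limma adjusted p 0.0056) that was 0.03 with median-centred libraries.

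This acyltransferase rose between DAF30 and DAF60 in both treatments, in T by 1.13 (limma adjusted p 0.0162) and in CK by 2.19 (adjusted p 1.2e-04), and both rises were also called with median-centred libraries. It reached 1 FPKM only in libraries of DAF60 and DAF150 and passed the filter through them. Both rises are therefore given as a description of these libraries. The rise within T was not called without replicate 1 or 2 of T at DAF30 or replicate 1 of T at DAF60. In CK it then fell at DAF150 relative to DAF60 by 1.04 (adjusted p 0.0116), but this fall was not called without replicate 1 of CK at DAF60 (-0.85), without replicate 3 of CK at DAF150 (-0.73) or with median-centred libraries (-0.38). In T the step from DAF60 to DAF150 was 0.08 and did not pass. The change of the T to CK difference between DAF30 and DAF60 was -1.05 for the GPAT6-like gene and -0.83 for MD05G1065300, and neither passed the test (adjusted p 0.0734 and 0.0912), so a T to CK difference that differs between these stages was not shown for them. Both passed without replicate 3 of CK at DAF60 and DAF150, an omission chosen after the values were seen. It removed the lowest CK library of both genes at each stage, so these passes are no support for such a change.

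Across stages within 1 treatment, the 5 genes therefore split. From DAF30 to DAF60, 3 fell and 1 rose in T (21.2% and 5.86% of all genes tested), and 2 rose in CK (31.3% of all genes). These rises were of MD05G1065300 and the GPAT6-like gene, which passed the filter only through libraries of DAF60 and DAF150, and are a description. From DAF60 to DAF150, 2 rose in T (18.2% of all genes) and 3 fell in CK (39.7% of all genes). The difference of T from CK became more negative between DAF30 and DAF60 in 3 of the 5 (37.2% of all genes), less negative between DAF60 and DAF150 in 2 (14.2% of all genes) and more negative between DAF30 and DAF150 in 1, the WSD1-like gene (21.1% of all genes). Counted as loci, the KCS19-like pair contributes 1 to each of the counts it enters.

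The genes of a suberin list were summed in each library and set beside KCS4 and the GPAT6-like gene. This list is not complete, since the cytochrome P450 86A1 and glycerol-3-phosphate acyltransferase 5 genes were placed in the cutin list. The list held 6 genes for omega-hydroxypalmitate O-feruloyl transferases and cytochromes P450 86B1, enzymes known for suberin and corky periderm. Their summed level was 2.17, 1.59 and 7.46 FPKM in T and 0.97, 0.99 and 3.48 FPKM in CK at DAF30. At DAF60 it was 10.4, 6.01 and 6.21 FPKM in T, against 61.1, 97.8 and 19.3 FPKM in CK. At DAF150 it was 9.20, 7.64 and 10.7 FPKM in T and 30.9, 56.8 and 9.08 FPKM in CK. Replicate 3 of CK was the lowest CK library at both later stages in the suberin sum, in MD05G1065300 and in the GPAT6-like gene. It was also the lowest of the 3 at both stages in the WSD1-like gene. The same held for the summed elongation and wax, cutin, export, regulator and fatty acid supply lists. The cutin and regulator lists themselves hold genes known for suberin or its regulation. In the KCS19-like models the lowest CK library was replicate 3 at DAF60 and replicate 1 at DAF150. Whether this pattern is particular to suberin was not tested. None of the 6 suberin genes was listed at 0 in all libraries of a group. The part of corky cells in the levels of these genes was not tested.

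**Figure D4:**
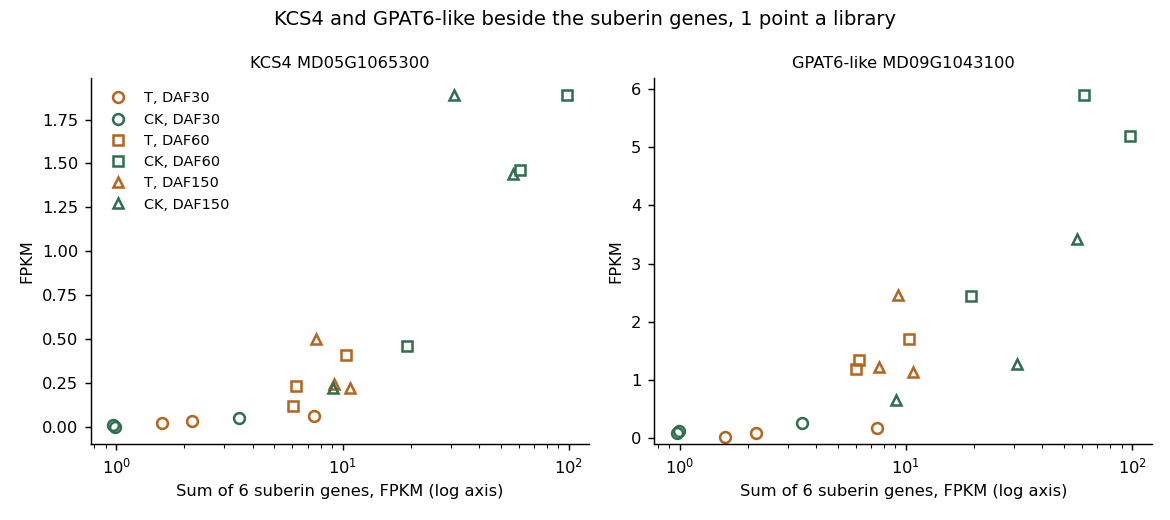
FPKM of MD05G1065300 and of the GPAT6-like gene in each library against the summed FPKM of the 6 suberin genes on a log axis. Both genes lie close to 0 in the DAF30 libraries. MD05G1065300 lies highest in the 4 CK libraries with suberin sums of 30.9 to 97.8 FPKM and the GPAT6-like gene in the CK libraries of DAF60 with 61.1 and 97.8 FPKM, while the GPAT6-like gene at 30.9 FPKM, replicate 1 of CK at DAF150, lies within the range of T.

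Other genes taken as markers of the skin's cell types differed between the groups too. The sum of 14 chloroplast genes for photosystem and light-harvesting proteins and Rubisco was 346 to 414 FPKM in T and 1739 to 3921 FPKM in CK at DAF60, and 348 to 688 FPKM in T and 2776 to 3815 FPKM in CK at DAF150, and of 13 tested, 11 fell in T at DAF60 and 12 at DAF150 (5 and 10 with median-centred libraries). The epidermal marker in the table, protodermal factor 1 (MD05G1116900), was higher in T at DAF60, at 96.7, 59.5 and 34.0 FPKM in T and 4.34, 18.9 and 18.5 FPKM in CK (difference 2.21, limma adjusted p 6.5e-04), and was at most 1.1 FPKM in every library at DAF150. The 6 vascular genes summed to 0.33 to 0.55 FPKM in T and 0.42 to 0.88 FPKM in CK at DAF60, and to 7.85 to 54.4 FPKM in T and 1.02 to 8.04 FPKM in CK at DAF150, where all 3 that were tested rose in T. Of the 13 chloroplast genes tested, 0 fell and 0 rose at DAF30. The T fruit was in light-proof bags, so effects of light on these genes and of cell number cannot be told apart. The part of these cell types in the levels of the chain-building genes was not tested.

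The genes with the most similar profile to each member were found by Pearson's r of log2(FPKM + 1) over the 18 libraries, which share their groups and their FPKM scaling, so r is a description. For MD07G1187400 they were a probable LRR receptor-like kinase (MD05G1298400, r = 0.924), an RPM1-like disease resistance gene (MD06G1024300, 0.911) and an ABC transporter C family member 3-like gene (MD03G1188200, 0.905), and MD07G1187000 gave the same genes in the same order. For MD05G1065300 they were an NRT1/PTR family gene (MD16G1080100, 0.968), a probable WRKY transcription factor (MD01G1071600, 0.957) and an SFH3-like lipid transfer protein (MD10G1070400, 0.942). For the GPAT6-like gene they were a vinorine synthase-like gene (MD13G1109300, 0.933), a GDSL esterase/lipase (MD00G1116600, 0.928), of a family that includes the cutin synthases, and a NAC domain gene (MD08G1121300, 0.919). For the WSD1-like gene they were subunit L of the chloroplast NAD(P)H-quinone oxidoreductase (MD16G1022900, 0.981), an uncharacterized gene (MD17G1214900, 0.977) and an iridoid glucosyltransferase-like gene (MD03G1081900, 0.976).

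Among the members themselves, MD05G1065300 and the GPAT6-like gene had an r of 0.802 and MD07G1187400 and the WSD1-like gene one of 0.738. The GPAT6-like gene had an r of 0.154 with MD07G1187400 and -0.261 with the WSD1-like gene. MD07G1187400 and the WSD1-like gene thus had profiles unlike those of MD05G1065300 and the GPAT6-like gene, which were near 0 at DAF30.

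The other barrier lipid genes of the table went both ways in T. Of 7 further elongation and wax genes, 1 could be tested, the KCS4-like gene MD10G1075000, which fell in T at DAF60 to 2.55 ± 0.387 FPKM, against 12.4 ± 6.30 FPKM in CK (SD, n = 3 each, difference -1.80, limma adjusted p 7.8e-04). It was not called with median-centred libraries (-0.64). As another KCS4 gene of the same family, it may share reads with MD05G1065300. Of 11 further cutin genes, 7 were tested, of which 5 fell and 2 rose at DAF60. The genes that fell were annotated as cytochrome P450 86A1, glycerol-3-phosphate acyltransferase 5 and long-chain acyl-CoA synthetase 2, the first and second of which are known for suberin in Arabidopsis roots. The largest fall was -2.93, of the cytochrome P450 86A1 gene MD03G1073600. The largest rise was 1.52, of the cytochrome P450 86A8 gene MD01G1064900, a fatty acid hydroxylase of cutin synthesis in Arabidopsis, at 13.4 ± 4.07 FPKM in T and 3.91 ± 0.310 FPKM in CK (SD, n = 3 each, limma adjusted p 4.8e-04).

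The second cutin gene that rose was HOTHEAD (MD09G1193200), an oxidoreductase of cutin monomers in Arabidopsis, with a difference of 0.71 at DAF60 (limma adjusted p 0.0332) and 1.07 at DAF30 (adjusted p 0.0179). At DAF150, P450 86A8 stood higher in T by 1.24 (adjusted p 0.0028). Both rises at DAF60 were larger with median-centred libraries, at 2.68 and 1.87, while 2 of the 5 falls among the cutin genes were then still called.

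Of the 6 suberin genes 5 were tested, and all 5 fell in T at DAF60, but 0 of them with median-centred libraries. The smallest and largest of these differences were -1.75, of a cytochrome P450 86B1-like gene (MD13G1004700), and -2.35, of an O-feruloyl transferase (MD06G1137500). The untested gene, a cytochrome P450 86B1 (MD13G1104800), went the other way at a low level, at 0.307 FPKM in T and 0.08 FPKM in CK at DAF60. The paper also lists an O-feruloyl transferase gene as higher in T, which the terms of this list did not find. Of 29 export genes, ABC transporters of the G family and lipid transfer proteins, 23 were tested, of which 19 fell and 2 rose, and 3 and 2 with median-centred libraries. The largest fall was of an ABC transporter G family member 11-like gene (MD05G1042600, -3.09, limma adjusted p 3.4e-05), a family that exports cuticular lipids in Arabidopsis. Its mean was 0.720 ± 0.240 FPKM in T and 13.8 ± 3.31 FPKM in CK at DAF60, and its differences of 0.10 at DAF30 and 0.01 at DAF150 did not pass, as in the KCS19-like models. The largest rise was of a lipid transfer protein gene (MD12G1187200, 1.20, adjusted p 0.0013).

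Of 3 regulators, both MYB39-like genes, whose Arabidopsis counterpart activates suberin genes, fell at DAF60 (MD01G1031700 and MD15G1323500, -1.26 each), and 0 of them with median-centred libraries. The WIN1-like gene MD02G1030900, whose Arabidopsis counterpart activates wax and cutin genes, was higher in T at DAF30 by 1.01 (limma adjusted p 0.0499) and at DAF150 by 1.17 (adjusted p 0.0078), and its difference of 0.74 at DAF60 had an adjusted p of 0.0537, but was 1.90 and called with median-centred libraries (adjusted p 8.1e-05). Of 3 fatty acid supply genes 1 was tested, and 0 were called at DAF60. By the KEGG pathways of the deposited annotation, 1 of 1 tested gene of fatty acid elongation, the KCS4-like gene above, fell at DAF60, and of 12 tested genes for cutin, suberin and wax 9 fell and 3 rose (2 and 3 with median-centred libraries). These lists share genes with each other and, like the whole table, were selected by the T to CK difference, so their direction is not independent evidence. Beside the background of 61.9% of genes lower and 9.51% higher in T at DAF60, the falls in the cutin list were 5 of 7 and the rises 2 of 7. Most of these falls were of cytochrome P450 86A1 and glycerol-3-phosphate acyltransferase 5 genes, known for suberin in Arabidopsis roots.

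**Figure D5:**
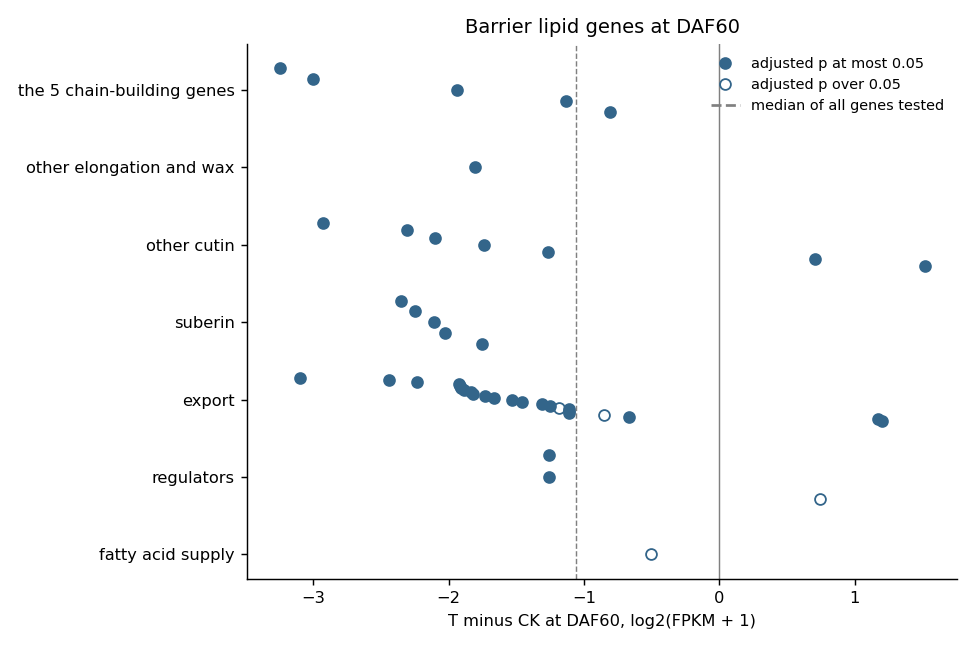
Difference of T from CK at DAF60 in log2(FPKM + 1) for the 5 chain-building genes and the other tested barrier lipid genes, filled where the limma adjusted p was at most 0.05. The chain-building, suberin and most export genes lie left of 0, the 5 suberin genes all left of the median of -1.06 of all genes tested (dashed), and P450 86A8 lies at 1.52, while with median-centred libraries 4 of the called export genes and MD05G1065300 and the GPAT6-like gene changed sign.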

How the data were processed

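The authors sequenced 100 bp reads on the BGISEQ-500 platform, aligned them with Bowtie2 to GDDH13 v1.1, calculated FPKM per gene and deposited them to 2 decimals. Which tool counted fragments is not given in the sources used here. Deposited log2 ratios and q-values hold the authors' own T to CK comparisons. They were read only to learn how the table was selected: all 2856 genes passed a 2-fold change with q-values up to 0.001. FPKM steps did not recover reads (14.3% to 53.8% of values of 36 short genes were whole within 0.006 FPKM).

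Genes reaching 1 FPKM in 3 or more libraries were fitted in limma 3.58.1 (R 4.3.3, trend and robust moderation, 6 groups, 18 libraries, all taken as independent) on log2(FPKM + 1), with Benjamini-Hochberg adjustment over 1399 genes. The script was tested on simulated data. Other pseudocounts, filters, moderation, centring, a replicate block and omitted libraries were tried. Members and gene lists, made by terms in the annotation, were chosen with earlier results of these data known. Named genes were the members, the 3 with the highest r to each, and the largest and smallest called change per list at DAF60. HOTHEAD, the WIN1-like gene and the third KCS19-like model were added after their values were seen. All columns were matched to samples, and no libraries held identical values. Gene sequences were not used here.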

Additional observations from a re-analysis of the deposited data

Results flagged for a closer look

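The T to CK difference of 3 gene models differed between stages by limma's test of the change itself, with 3 libraries a group. Such changes were common in the table, at 37.2% of all genes tested more negative between DAF30 and DAF60, 14.2% less negative between DAF60 and DAF150 and 21.1% more negative between DAF30 and DAF150. Between DAF30 and DAF60 it changed by -2.68 for MD07G1187400 (adjusted p 0.0022), by -2.48 for MD07G1187000 (adjusted p 0.0024) and by -1.78 for the WSD1-like gene MD02G1104100 (adjusted p 0.0031), the last of which was -0.88 and not called with median-centred libraries (adjusted p 0.0645). Between DAF60 and DAF150 it changed by 3.13 for MD07G1187400 and by 3.02 for MD07G1187000 (adjusted p 7.8e-04 each), which share their locus. Between DAF30 and DAF150 it changed by -1.66 for the WSD1-like gene (adjusted p 0.0035). None of these contrasts was the one by which the authors selected the table, but the same libraries entered it. They are therefore not fully independent of the selection.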

How the results depend on the processing

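With median-centred libraries, 3 in place of 5 genes fell at DAF60, and differences changed sign as follows. At DAF30 they became 0.18 (GPAT6-like) and 0.11 (WSD1-like), at DAF60 0.35 (MD05G1065300) and 0.025 (GPAT6-like), at DAF150 0.34 (MD07G1187400) and 0.46 (GPAT6-like), and over the stages 0.15 (MD05G1065300) and 0.22 (GPAT6-like). Within CK from DAF60 to DAF150 they became 0.57 (MD05G1065300) and 0.18 (WSD1-like). The changes of the T to CK difference became 0.072 (MD05G1065300, DAF30 to DAF60), -0.53 (MD05G1065300, DAF60 to DAF150) and -0.57 (WSD1-like, DAF60 to DAF150). A pseudocount of 0.1 gave 0.065 for the GPAT6-like gene at DAF150 and -1.30 for the WSD1-like change between DAF60 and DAF150. Without replicate 2 of CK at DAF60 and DAF150, DAF150 differences were 0.082 (MD07G1187400) and 0.39 (GPAT6-like). Only the libraries of each comparison gave 5 in place of 3 genes for the change between DAF30 and DAF60. Leaving out replicate 3 of CK at DAF60 and DAF150, chosen after seeing the data, gave 5 genes there, 2 at DAF150, 2 for the change between DAF30 and DAF150, and -0.24 for the GPAT6-like gene in the last. The cause of these shifts was not tested.

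Leaving out each library in turn gave 0 genes at DAF30, 4 to 5 at DAF60, 1 to 2 at DAF150 and 4 to 5 over the stages. Within CK it gave 2 to 3 genes from DAF30 to DAF60 and 2 to 3 from DAF60 to DAF150, and within T 3 to 4 and 0 to 2 (0 without replicate 3 of T at DAF60). The changes of the T to CK difference gave 3 to 5, 2 to 3 and 1 to 2 genes. Signs that turned lay in these ranges: WSD1-like at DAF30 -0.33 to 0.11; at DAF150 MD07G1187400 -0.38 to 0.082, MD07G1187000 -0.23 to 0.16 and GPAT6-like -0.32 to 0.39; from DAF60 to DAF150 MD05G1065300 -0.38 to 0.28 in CK and -0.021 to 0.16 in T, and GPAT6-like -0.14 to 0.21 in T. For changes of the T to CK difference they were -0.21 to 0.45 (MD05G1065300) and -0.025 to 0.29 (WSD1-like) between DAF60 and DAF150, and -0.24 to 0.47 (GPAT6-like) between DAF30 and DAF150.

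Same-numbered T and CK libraries had correlations of -0.347 to 0.175 in their deviations, so the numbers were not taken to pair them. A replicate block gave 2 in place of 1 gene at DAF150 and changed no other count by over 1.5 times. FPKM without counts sets no error on single values, and depth limits the genes under 1 FPKM most. The spread rests on 3 libraries a group, possibly from repeated trees.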
